A study of Homo sapiens with 6 samples.

Results

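AP-1 factors, MYC and EGR1 were followed in MCF10A cells with ErbB2, compared by the state of RB. The set held 10 genes, FOS, FOSB, FOSL1, FOSL2, JUN, JUNB, JUND, ATF3, EGR1 and MYC, and was chosen by gene symbol. Each gene was read by 1 probe set that carries only its symbol, and all 10 were measured among 18417 genes. MCF10A is an established cell line of human breast epithelium that does not form tumours, and ErbB2 is a receptor tyrosine kinase. One group was 3 arrays of RB-proficient cells (tag miNS in the titles) and the other 3 arrays of RB-deficient cells (tag miRB), and the tags are not spelled out. All 6 samples were of cells with ErbB2, grown for 7 days in 3-D culture in a reconstituted membrane. The medium held horse serum, insulin, cholera toxin and hydrocortisone. Cells and matrix were lysed together. The labels do not say whether replicates were separate cultures or whether a line was 1 clone, and the p-values then cover only the spread from array to array, which may be technical.

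AP-1 is a family of dimeric transcription factors. FOS proteins pair with JUN proteins, which can also pair among themselves, and both bind the same DNA element through a basic leucine zipper. Many of these genes, with EGR1 and MYC, are immediate-early genes. Growth factor signalling through ERK switches them on within minutes without new protein synthesis, for some of them through SRF and its partner factors. In mammary epithelium AP-1 and MYC are known for their part in proliferation and matrix remodelling downstream of receptors such as ErbB2.

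Upstream regions of 4 members are shown, to make visible some of the elements through which these genes are known to respond. JUN was the only member whose groups did not overlap, and JUND had the highest mean difference. FOS had the widest spread, and EGR1 is a known SRF target. They come from RefSeq (GRCh38.p14), 250 bases before to 50 bases after the annotated start, written on the strand of the gene. Capitals mark in FOS the half-CRE TGACGT and the TATA box TATAAA, in EGR1 CArG boxes, half-CREs and an EGR site GCGNGGGCG, in JUN the CCAAT box and TGACATCA, and in JUND the CCAAT box and the full CRE TGACGTCA.
FOS, chr14:75278578-75278877, plus strand: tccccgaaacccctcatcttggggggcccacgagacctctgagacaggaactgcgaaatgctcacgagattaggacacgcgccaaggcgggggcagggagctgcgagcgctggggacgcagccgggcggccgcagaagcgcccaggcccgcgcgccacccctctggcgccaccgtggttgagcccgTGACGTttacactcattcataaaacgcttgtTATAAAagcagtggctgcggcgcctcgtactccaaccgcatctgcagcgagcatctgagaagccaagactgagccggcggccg
EGR1, chr5:138465229-138465528, plus strand: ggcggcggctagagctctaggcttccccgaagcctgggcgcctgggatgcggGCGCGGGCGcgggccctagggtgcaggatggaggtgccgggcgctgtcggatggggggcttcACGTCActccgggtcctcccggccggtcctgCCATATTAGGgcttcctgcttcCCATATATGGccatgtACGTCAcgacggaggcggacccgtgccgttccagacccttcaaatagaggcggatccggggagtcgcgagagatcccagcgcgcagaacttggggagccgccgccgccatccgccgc
JUN, chr1:58783998-58784297, minus strand: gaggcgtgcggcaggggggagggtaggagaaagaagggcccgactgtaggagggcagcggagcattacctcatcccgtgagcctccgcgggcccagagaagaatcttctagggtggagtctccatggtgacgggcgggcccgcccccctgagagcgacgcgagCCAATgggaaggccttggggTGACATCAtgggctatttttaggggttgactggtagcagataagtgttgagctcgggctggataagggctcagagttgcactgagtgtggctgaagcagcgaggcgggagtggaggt
JUND, chr19:18281573-18281872, minus strand: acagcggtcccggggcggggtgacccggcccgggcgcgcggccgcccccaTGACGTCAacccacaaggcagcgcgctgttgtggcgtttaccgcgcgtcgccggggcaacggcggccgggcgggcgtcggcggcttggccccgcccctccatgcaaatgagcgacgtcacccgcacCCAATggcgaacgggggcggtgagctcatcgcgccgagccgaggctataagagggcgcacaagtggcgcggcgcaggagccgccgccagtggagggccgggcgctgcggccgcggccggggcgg

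The EGR1 window held 2 CArG boxes, the element bound by SRF, at bases −105 to −96 and −83 to −74 from the start. A CArG box was found in 1.29% of 35116 RefSeq windows of this length and, among the members scanned, only in the EGR1 window. Bases further upstream were not searched, so a member without a match here may still have a CArG box outside its window. For this scan 8 members had a window, searched on both strands, and MYC was not scanned. ATF3 had windows at separate starts, and a match in either counted. The half-CRE, which is part of the full CRE, occurred in 5 of the 8 (FOS, FOSB, FOSL2, JUND and EGR1) and in 7.98% of all windows, and in FOS it lay at −64 to −59. The full CRE was found in JUND alone among them, at −200 to −193, and in 1.85% of windows. TGACATCA, the element known from the JUN promoter, lay at −67 to −60 in JUN, and it occurred in JUN, ATF3 and 2.61% of windows. The AP-1 site TGANTCA was found in 1 of the 8, FOSL2, and in 7.71% of windows. The E-box CACGTG, the element of MYC and MAX, was found in 0 of the 8 and in 7.26% of windows. The E2F elements TTTCCCGC and TTTGGCGC were found in 0 of the 8, and in 1.63% and 0.652% of windows. The EGR site was found in EGR1 alone among the 8 and in 9.43% of windows, and the TATA box in 4 (FOS, FOSB, JUNB and ATF3) and in 11.5%. The letters TATAAA began at −33 in FOS, −30 in FOSB and −31 in JUNB, but at −230 in ATF3, far from the start. The CCAAT box was found in 4 (JUN, JUNB, JUND and ATF3) and in 34.6% of windows, and the GC box GGGCGG in 6 and in 45.0%. The letters are a description of these windows and do not say which factor binds.

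The deposited values were linear intensities, and no detection calls were used here. Values in the text are log2 intensities after scaling of all arrays to a common median, with values under 1 set to 1, so that 0 is the floor. No member was at the floor in any array. Differences are RB-deficient minus RB-proficient on the log2 scale, with n = 3 per group. The arrays labelled RB-deficient varied more: the median SD of a gene was 0.84 there and 0.40 in the RB-proficient arrays. Across genes, the arrays labelled RB-deficient 1 and 2 correlated with the RB-proficient arrays at 0.69 to 0.76, and RB-deficient 3 at 0.83 to 0.88. Pairs sharing the RB-proficient label reached 0.90 to 0.92, but pairs sharing the other label only 0.67 to 0.75. RB-deficient 3 was thus closer to every RB-proficient array than to its own group. Genes at the floor made up 4.78% of RB-deficient 1, 1.68% of RB-deficient 2 and at most 0.706% of any other array. RB1, the gene of the protein that names the groups, differed by −1.95 (SE 0.75, limma adjusted p 0.301), by −1.25 without RB-deficient 1 and by −0.77 with RB-deficient 3 as the only array of its group. The array labelled RB-deficient 3 had 5.98 for RB1, above the 5.71 of RB-proficient 2, so RB1 did not bear out its label against that array. The direction of every difference therefore rests on the labels, and RB-deficient 1 to 3 stand for the arrays so labelled. ERBB2 had 4.81, 5.42 and 5.35 and then 3.93, 3.61 and 4.13, without overlap, a difference of −1.31 (SE 0.48, adjusted p 0.286). Of the mammary epithelial markers 8 of 10 were measured, among them KRT5, KRT14, KRT8, KRT18, CDH1 and EPCAM. Their summed linear intensity was 3194 to 5689 in the RB-proficient arrays and 1994 to 2723 in the arrays labelled RB-deficient. Such sums rest mostly on the brightest genes, and KRT5 reached 11.6 on the log2 scale in RB-proficient 3. By mean difference 7 of the 8 were lower, while EPCAM was higher without overlap, by 0.24 (SE 0.46). The summed intensity of 7 fibroblast markers was 138 to 184 and 135 to 280, and 4 of them had a higher mean. For 5 endothelial markers it was 457 to 574 and 294 to 345, and for 5 leukocyte markers 322 to 443 and 193 to 241. In each of these 2 lists 3 markers had a lower and 2 a higher mean. CDH5 was the brightest endothelial and CD68 the brightest leukocyte marker in every array. PTPRC was higher without overlap, by 1.38 (SE 0.58). None of these markers was at the floor in all arrays. MCF10A is an epithelial line, so the fibroblast, endothelial and leukocyte markers are not read as cells of those types. In bulk RNA, fewer cells that express a gene and less of its RNA per cell cannot be told apart.

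None of the 10 genes passed. By limma, 0 of 10 had an adjusted p under 0.05, against 0.00543% of all genes (1 gene), and 0 of 10 had an unadjusted p under 0.05, against 13.7% of all genes. Mean differences ran from −1.43 for JUN to 0.70 for JUND. The mean was lower in the arrays labelled RB-deficient for 6 genes (FOS, FOSB, FOSL1, JUN, EGR1 and MYC) and higher for 4 (FOSL2, JUNB, JUND and ATF3), and 58.6% of all genes had a lower mean. The median difference was −0.63 over the members and −0.21 over all genes. Over the members it was −0.20 without RB-deficient 2, −0.25 without RB-proficient 3, −0.25 with an offset of 16 and −0.18 with a floor of 16. The median over all genes was −0.08 after centring each array on its gene median. For FOSL2, JUN and JUND the difference is also given relative to the uncentred median over all genes, −0.21. The groups did not overlap for 1 member, JUN, against 22.4% of all genes, of which 15.3% were lower and 7.12% higher.

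**Figure D1:**
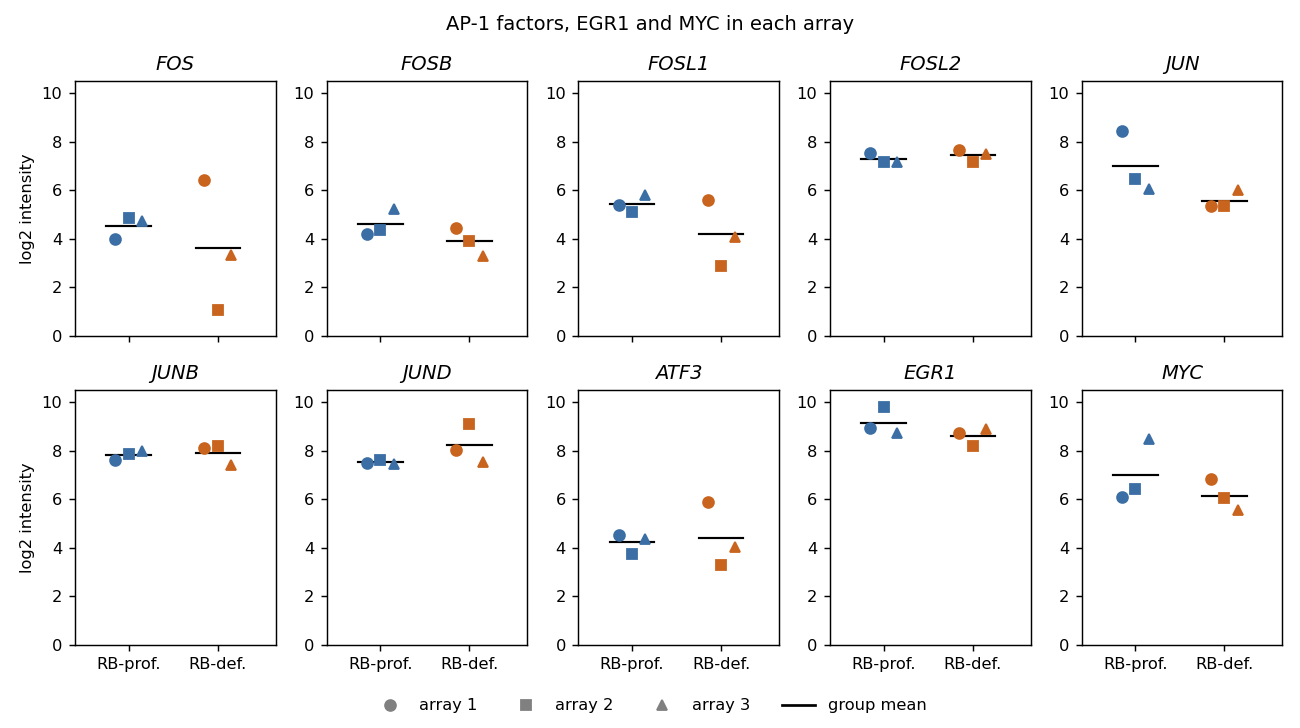
Log2 intensity of each of the 10 genes in the 3 RB-proficient (blue) and 3 RB-deficient (orange) arrays, with array numbers as symbols and group means as lines. The JUN groups alone do not overlap, and FOS spans from 1.07 to 6.44 in the arrays labelled RB-deficient.

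Among the FOS proteins, FOS, the founding member that is rapidly induced and short-lived, had values of 3.99, 4.85 and 4.74 under the RB-proficient label (arrays 1 to 3, in that order here and below) and of 6.44, 1.07 and 3.31 under the RB-deficient label. The first of the latter lay above every RB-proficient value and the others lay below every one. FOS thus differed by −0.92 (SE 1.12, 95% interval −3.43 to 1.59; limma adjusted p 0.731). The SD of FOS in the arrays labelled RB-deficient was 2.70, at percentile 98.9 of all genes, and its lowest and highest values there were 41.4-fold apart, against 1.82-fold in the RB-proficient arrays. Its direction depended on a single array and on the floor: the difference was 0.35 without RB-deficient 2, −2.34 without RB-deficient 1, and 0.28 with a floor of 16, below which 3 of the 6 FOS values lie.

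FOSL1 encodes FRA1, which lacks the transactivation domain of FOS and is a known ERK output in epithelial tumours. Its values were 5.40, 5.11 and 5.82 under the RB-proficient label and 5.58, 2.87 and 4.07 under the RB-deficient label. RB-deficient 1 lay within the RB-proficient range, and RB-deficient 2 was the lowest array, as it was for FOS. FOSL1 had the second smallest p of the members, with a difference of −1.27 (SE 0.69, interval −2.82 to 0.29, adjusted p 0.447). Without RB-deficient 2 it was −0.61 and without RB-deficient 1 it was −1.97. With a floor of 16, below which 1 FOSL1 value lies, it was −0.89.

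FOSB, a FOS paralogue also induced by growth factors, had values of 4.17, 4.37 and 5.24 under the RB-proficient label and 4.44, 3.92 and 3.29 under the RB-deficient label. The groups overlapped through RB-deficient 1, and the difference was −0.71 (SE 0.54, interval −1.93 to 0.51, adjusted p 0.585). It was −0.39 without RB-proficient 3 and −0.41 without RB-deficient 3. With a floor of 16, below which 2 FOSB values lie, it was −0.44. FOSL2, which encodes FRA2, differed least among the FOS genes across arrays, with 7.52, 7.14 and 7.15 against 7.67, 7.18 and 7.50. Its difference was 0.18 (SE 0.47, interval −0.87 to 1.23), or 0.39 relative to all genes, with an adjusted p of 0.880. With single arrays left out it ran from 0.07 (without RB-deficient 1) to 0.31 (without RB-deficient 2; also 0.31 without RB-proficient 1), with 0.12 without RB-proficient 2 or 3. The FOSL2 SD of 0.25 in the arrays labelled RB-deficient lay at percentile 5.10 of all genes.

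Among the JUN genes, none of which passed, the mean was lower for JUN and higher for JUND and JUNB, and differences between the genes were not tested. JUN, the AP-1 subunit that is activated by JNK and acts on its own promoter, had values of 8.45, 6.47 and 6.06 under the RB-proficient label and 5.34, 5.35 and 6.01 under the RB-deficient label. All of the latter lay below all of the former, by 0.05 between the nearest arrays, RB-proficient 3 and RB-deficient 3. The JUN difference was −1.43 (SE 0.67, interval −2.94 to 0.08; 2.69-fold lower, and −1.22 relative to all genes). It had the smallest p of the members, 0.0614 before and 0.382 after adjustment over all genes. RB-proficient 1 stood 1.98 above the next RB-proficient array, and without it the JUN difference was −0.70 (adjusted p 0.799).

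JUND, the JUN family member that is widely expressed and in several settings slows proliferation, had values of 7.50, 7.60 and 7.46 under the RB-proficient label, an SD of 0.07 that lay at percentile 2.60 of all genes. In the arrays labelled RB-deficient it had 8.03, 9.08 and 7.54, so RB-deficient 1 and 2 lay above the RB-proficient range and RB-deficient 3 within it. JUND differed by 0.70 (SE 0.54, interval −0.52 to 1.91; adjusted p 0.589), or 0.91 relative to all genes. Without RB-deficient 2 it was 0.26, and with RB-deficient 3 as the only array of its group it was 0.02. JUNB, a JUN family member often opposed to JUN in growth control, had values of 7.62, 7.84 and 8.00 and then 8.11, 8.18 and 7.39. RB-deficient 1 and 2 were again above the RB-proficient arrays, RB-deficient 3 was below them, and the difference was 0.08 (SE 0.49, interval −1.02 to 1.17, adjusted p 0.955).

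**Figure D2:**
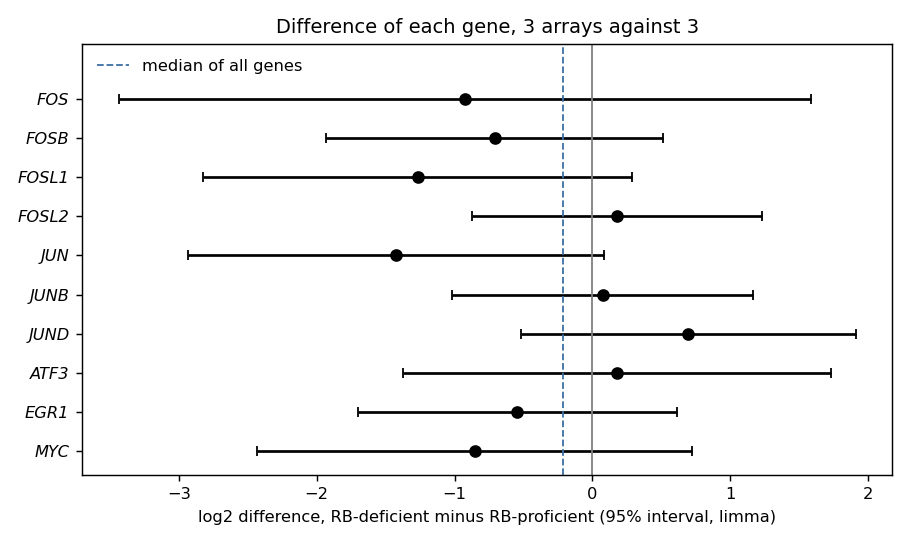
Log2 difference of each gene, RB-deficient minus RB-proficient, with its 95% interval from limma (3 arrays against 3). Every interval crosses 0, and the dashed line marks the median of all genes at −0.21.

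ATF3, a stress-induced partner of JUN proteins, had values of 4.53, 3.75 and 4.35 under the RB-proficient label and 5.87, 3.27 and 4.03 under the RB-deficient label. RB-deficient 1 was above and RB-deficient 2 below every RB-proficient array, as for FOS. The mean difference was 0.18 (SE 0.69, interval −1.38 to 1.73, adjusted p 0.924), and it was −0.57 without RB-deficient 1 and 0.74 without RB-deficient 2. With a floor of 16, below which 2 ATF3 values lie, it was 0.34.

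EGR1, a zinc finger factor induced by ERK and SRF, had values of 8.94, 9.78 and 8.73 under the RB-proficient label and 8.73, 8.19 and 8.89 under the RB-deficient label. RB-deficient 3 lay within the RB-proficient range and RB-deficient 2 below it, and RB-deficient 1 was level with RB-proficient 3. The difference was −0.55 (SE 0.52, interval −1.70 to 0.61, adjusted p 0.656). Without RB-proficient 2 it was −0.23 and without RB-deficient 2 it was −0.34.

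MYC, which pairs with MAX and drives ribosome production and growth, had values of 6.08, 6.42 and 8.48 under the RB-proficient label and 6.81, 6.06 and 5.55 under the RB-deficient label. RB-proficient 3 stood above the other 5 arrays, and RB-deficient 1 lay within the RB-proficient range. The MYC difference was −0.85 (SE 0.70, interval −2.43 to 0.73, adjusted p 0.609). Without RB-proficient 3 it was −0.11, without RB-deficient 3 −0.56, and without RB-proficient 1 −1.31.

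**Figure D3:**
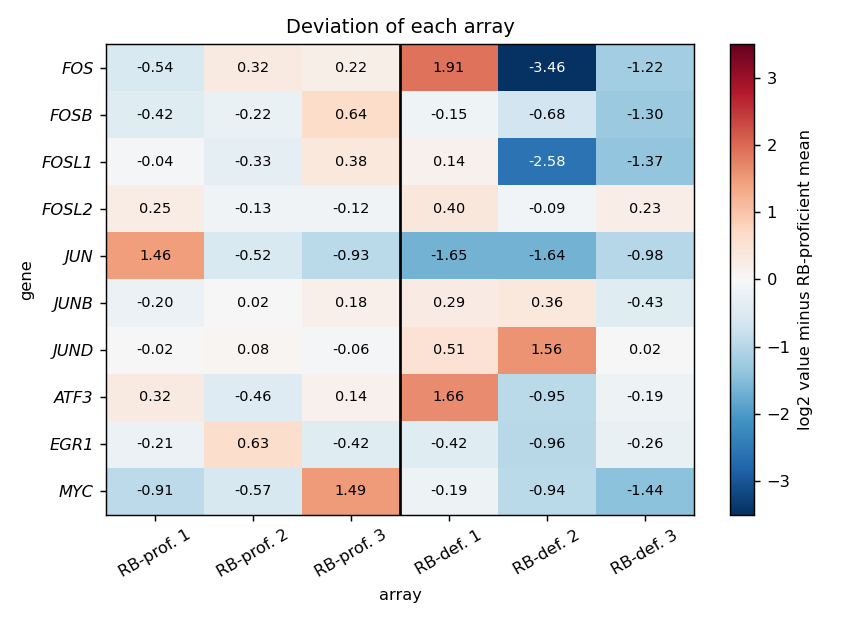
Log2 value of each gene in each array minus its RB-proficient mean, as colour and number. RB-deficient 2 has the lowest values for FOS (−3.46) and FOSL1 (−2.58) and the highest for JUND (1.56), while RB-deficient 1 is highest for FOS (1.91) and ATF3 (1.66).

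Of the 3 arrays labelled RB-deficient, RB-deficient 1 was highest for 6 of 10 members (FOS, FOSB, FOSL1, FOSL2, ATF3 and MYC), against 38.8% of all genes. JUNB and JUND were highest in RB-deficient 2, and JUN and EGR1 in RB-deficient 3. Relative to the RB-proficient mean, the median over the members was 0.22 in RB-deficient 1, −0.94 in RB-deficient 2 and −0.71 in RB-deficient 3, where the median over all genes was −0.14, −0.37 and −0.14. In both RB-deficient 2 and RB-deficient 3, 8 of 10 members lay below their RB-proficient mean, against 60.3% and 57.0% of all genes. The SD was larger in the arrays labelled RB-deficient for 7 of 10 members, and for 81.0% of all genes. JUN, EGR1 and MYC were the exceptions, each with 1 RB-proficient array that stood above the others.

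Genes around the members were taken from lists of partners, regulators and targets, and 0 of their genes passed an adjusted p of 0.05 in either direction by limma. At an unadjusted p under 0.05, 10.9% of all genes were lower and 2.85% higher. ACTB and GAPDH, used as reference genes, were lower in the same arrays by mean differences of −1.92 (SE 0.50) and −1.23 (SE 0.47), without overlap, and their part in the differences below was not tested.

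Dimer partners and relatives had a median difference of −0.27 over 23 genes, 16 of them lower and 7 higher. MAX, the obligate partner of MYC, had values of 8.65, 8.71 and 9.65 under the RB-proficient label and 8.24, 7.28 and 7.64 under the RB-deficient label. Its groups did not overlap, and the difference was −1.29 (adjusted p 0.330, 0.0369 before adjustment). CREB1, which binds the CRE, differed by −1.25 (adjusted p 0.318) and also did not overlap. DDIT3, the stress-induced bZIP factor CHOP, differed by 1.04 (adjusted p 0.481), and MGA, a MAX partner, by −1.48 (adjusted p 0.447). Of these 23 genes, 2 were lower and 0 higher at an unadjusted p under 0.05.

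In the EGR family and its corepressors, 4 of 5 genes were measured, 2 lower and 2 higher. NAB2, a corepressor of EGR1, had values of 5.12, 5.05 and 5.26 against 4.73, 3.88 and 3.13, and differed by −1.23 (adjusted p 0.362). NAB1, its paralogue, was higher in all arrays labelled RB-deficient, by 0.59 (adjusted p 0.589). EGR3 had 0.66 in RB-deficient 2 and at least 4.32 in every other array, and differed by −1.43 (adjusted p 0.537).

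The other immediate-early genes had a median difference of −0.48 over 19 genes, 14 lower and 5 higher, with 4 lower and 0 higher at an unadjusted p under 0.05. IER2, a nuclear protein of the serum response, had values of 6.83, 6.53 and 7.01 against 3.26, 5.05 and 5.99, a difference of −2.02 (adjusted p 0.273). KLF6, a Krüppel-like factor, differed by −1.73 (adjusted p 0.285) and MCL1, an antiapoptotic BCL2 relative, by −1.15 (adjusted p 0.355), and neither overlapped. DUSP1, the phosphatase that switches off MAP kinases, had 5.23, 3.49 and, at the floor, 0 under the RB-deficient label, and differed by −2.51 (adjusted p 0.363). Its largest departure was thus in RB-deficient 3, while that of FOS was in RB-deficient 2 and that of IER2 in RB-deficient 1.

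Of the 12 measured upstream kinases and SRF factors 11 had a lower mean, with a median of −0.47. SRF, the factor that binds CArG boxes such as those printed for EGR1, had values of 5.98, 5.22 and 5.86 under the RB-proficient label and 3.84, 3.29 and 4.30 under the RB-deficient label. The groups did not overlap, and the SRF difference was −1.87 (95% interval −3.03 to −0.72) with an unadjusted p of 0.00486 and an adjusted p of 0.212. MAP2K4, a kinase upstream of JNK, differed by −1.27 (adjusted p 0.436), RPS6KA3, the kinase RSK2, by −1.05 (adjusted p 0.521) and MAPK3, the kinase ERK1, by −0.58 (adjusted p 0.647), and all of these overlapped.

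Genes known for the turnover of MYC and JUN were lower on average for all 9 measured members, with a median of −1.17, and for 2 of them at an unadjusted p under 0.05. Relative to the RB-proficient mean, the list median was −1.98 in RB-deficient 1, −1.25 in RB-deficient 2 and −0.01 in RB-deficient 3, so RB-deficient 3 lay with the RB-proficient arrays. HUWE1, a ubiquitin ligase of MYC, had values of 8.08, 8.12 and 8.63 against 6.01, 5.81 and 7.98, a difference of −1.67 (adjusted p 0.301). PPP2R5A, a phosphatase subunit, differed by −1.96 (adjusted p 0.286), SKP2, a ubiquitin ligase subunit, by −1.22 (adjusted p 0.370) and USP28, a deubiquitinase, by −1.28 (adjusted p 0.409).

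**Figure D4:**
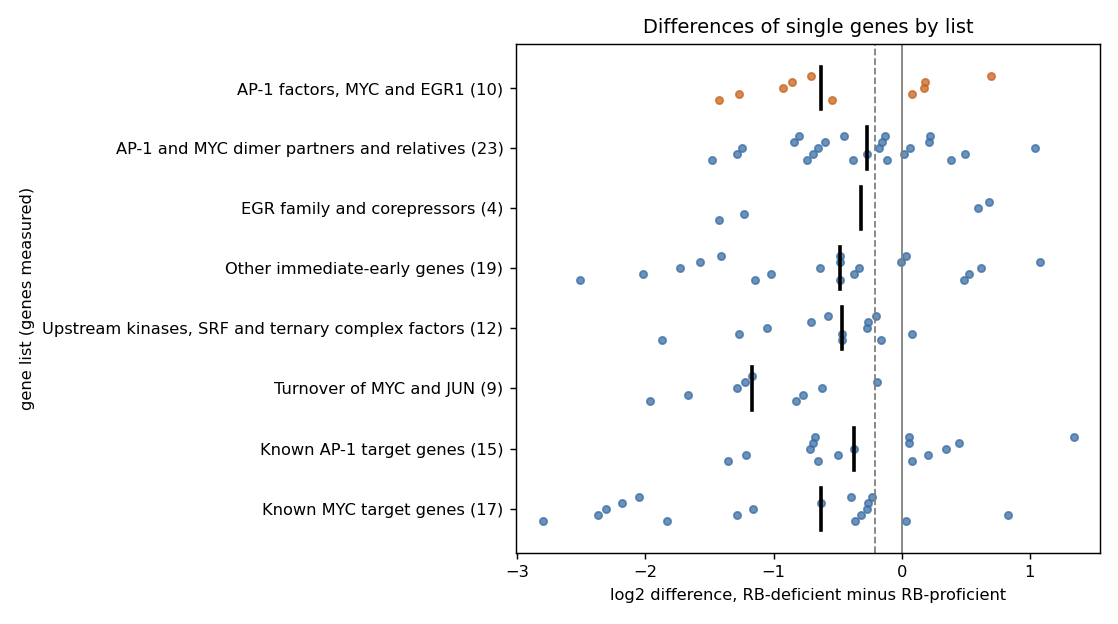
Log2 difference of single genes (points) and the list median (black bar) for the 10 genes and for 7 lists of partners, regulators and targets. The dashed line is the median of all genes (−0.21), and the turnover list, at −1.17, has the lowest median.

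Known AP-1 target genes were split, 8 lower and 7 higher of 15, with a median of −0.37. PLAU, the urokinase protease, differed by −1.36 (adjusted p 0.339) with overlapping groups and HMOX1, heme oxygenase, by −0.69 (adjusted p 0.531) without overlap. VEGFA, a vascular growth factor, differed by 1.34 (adjusted p 0.427), and the cell surface receptor CD44 by −0.65 (adjusted p 0.588). Only PLAU among the 15 had an unadjusted p under 0.05.

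Known MYC target genes had a median difference of −0.63 over 17 genes, 15 lower and 2 higher, with 6 lower and 0 higher at an unadjusted p under 0.05. FBL, the nucleolar methyltransferase fibrillarin, had values of 8.13, 8.45 and 9.67 under the RB-proficient label and 7.45, 5.92 and 6.32 under the RB-deficient label. Its groups did not overlap, and it differed by −2.19 (adjusted p 0.224). CAD, a pyrimidine synthesis enzyme, had 5.73, 4.79 and 6.54 against 3.43, 0.95 and 4.26, where 0.95 is near the floor. CAD differed by −2.80 (adjusted p 0.233), PHB1, prohibitin, by −2.31 (adjusted p 0.238) and SRM, spermidine synthase, by −2.37 (adjusted p 0.256), all without overlap. Relative to the RB-proficient mean, the list median was −0.34, −0.30 and 0.70 for RB-proficient arrays 1 to 3 and 0.00, −0.93 and −1.002 in RB-deficient arrays 1 to 3. MYC itself had −0.91, −0.57 and 1.49, then −0.19, −0.94 and −1.44. From highest to lowest, the arrays thus stood in the same order for MYC and for the median of its targets, which was noticed after the values were seen. That order was shared by 43 of the other 18416 genes (0.233%) and by the median of 1 of the 7 lists. The order was picked from these same values, and the share counts single genes, not medians of 17. It is therefore a description and not a test. RB-proficient 3 was the highest of all 6 arrays for 13 of the 17 targets, against 22.0% of all genes. The median over all genes was also highest in that array, at 0.10 relative to the RB-proficient mean. Of the references, ACTB (9.40), GAPDH (9.35) and RB1 (7.585) were highest there too, and ERBB2 was highest in RB-proficient 2 (5.42). Whether the targets follow MYC or a trait of that array was not tested. The points of both series come from the same 6 arrays and share their RNA and amplification.

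**Figure D5:**
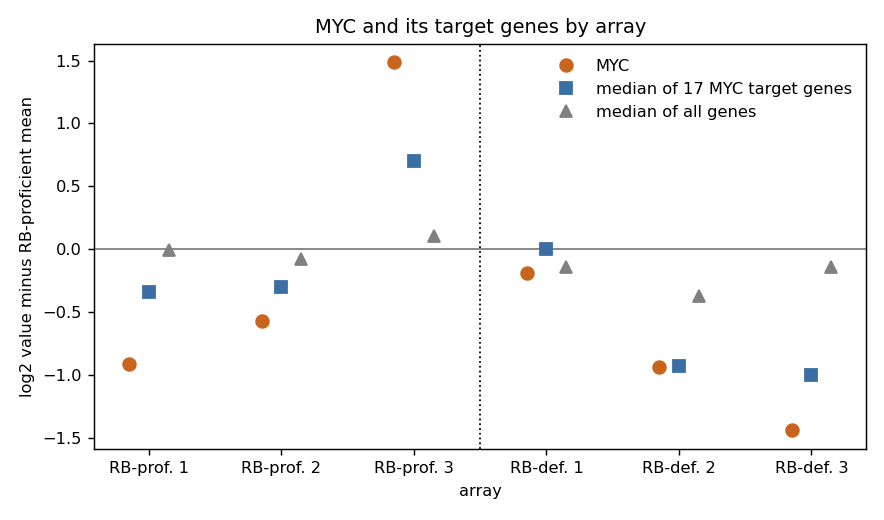
MYC (circles), the median of 17 known MYC target genes (squares) and the median of all genes (triangles) in each array, as log2 value minus RB-proficient mean. MYC and its targets are both highest in RB-proficient 3 (1.49 and 0.70) and lowest in RB-deficient 3 (−1.44 and −1.002).

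For 3 members, the genes nearest in pattern were found as the smallest root mean square difference of mean-centred log2 values over the 6 arrays, among 9203 other genes with at least the median level. For MYC these were UTP14A, a nucleolar protein of ribosome assembly, at 0.157, PDIA5 at 0.180 and ZC3H10 at 0.234, where the median over those genes was 0.998. For EGR1 they were DZANK1 at 0.0596, NUP54, a nuclear pore protein, at 0.132 and LNPK at 0.165, with a median of 0.740. For FOS they were SNORA71A, a small nucleolar RNA, at 0.470, ITPA at 0.524 and DNAH11 at 0.558, with a median of 1.60. Each was picked for its likeness over these 6 arrays.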

How the data were processed

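Array intensities of 6 samples, 1 per array, were used. The intensities were deposited by the authors on a linear scale, from Affymetrix Expression Console 1.1, per the submitters' processing notes; for summarisation and normalization, no method was given in the sources used here. Values ran from 3.53e-05 to 7075, with medians of 21.4 to 28.0. Each array was scaled to the mean of the 6 medians, floored at 1 and log2-transformed. Of 33297 probe sets, 19460 had 1 symbol, 1754 had several and 12083 had none; the brightest of a gene's probe sets was kept. The comparison used lmFit and eBayes of limma 3.58.1 (R 4.3.3), two-sided and without covariates, Benjamini-Hochberg adjusted over 18417 genes, threshold 0.05. The fit was also run on simulated data with the same SD in both groups. The unequal spread of these arrays was therefore not covered. Same-numbered arrays did not deviate together (correlations −0.12, 0.07 and −0.11), so they were not paired. Members and lists were chosen with earlier results of these data known. Named genes were all members, 4 references (RB1, ACTB, GAPDH, ERBB2), up to 4 genes per list by unadjusted p, and the 3 genes nearest in pattern to FOS, MYC and EGR1.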

Additional observations from a re-analysis of the deposited data

How the results depend on the processing

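No member passed the threshold under any of 18 alternatives; the lowest adjusted p by limma over those settings was 0.203 (FOSL1 without RB-deficient 1). The number of all genes passing, 1 here, was 61 with a floor of 16, 61 with eBayes with trend and robust, 176 with an offset of 16, 4 without the dimmest 50% of genes, 0 without the dimmest 25%, 0 without RB-deficient 1 and 2, and 0 to 0 with single arrays left out. The members' median difference, −0.63 here, was −0.18 with a floor of 16, −0.25 with an offset of 16, −0.24 over the 6 members left without the dimmest 50% of genes, and −0.80 to −0.20 with single arrays left out. With the replicate number as a block it was −0.63, with 0 members and 1 gene passing; this pairing changed no call.

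FOS reversed to 0.28 with a floor of 16, and ran from −2.34 to 0.35 with single arrays left out, higher without RB-deficient 2. JUNB reversed to −0.0072 with array weights and to −0.43 without RB-deficient 1 and 2, and ran from −0.067 to 0.33 with single arrays left out, below 0 without RB-proficient 1, RB-deficient 1 or RB-deficient 2. ATF3 reversed to −0.082 with array weights and to −0.19 without RB-deficient 1 and 2, and ran from −0.57 to 0.74 with single arrays left out, below 0 without RB-proficient 2 or RB-deficient 1. The cause was not tested. The other 7 members kept their direction in every alternative that measured them, quantile normalization, centring and no scaling included. With 3 arrays per group, the 95% intervals of the members leave room for changes of over 2-fold in at least 1 direction.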
